A study of Mus musculus with 12 samples.

Results

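A group of 8 genes of the membrane-spanning 4A (MS4A) family was followed in injured mouse brain, namely Ms4a1 (ENSMUSG00000024673), Ms4a4a (ENSMUSG00000101389), Ms4a4b (ENSMUSG00000056290), Ms4a4c (ENSMUSG00000024675), Ms4a6b (ENSMUSG00000024677), Ms4a6c (ENSMUSG00000079419), Ms4a6d (ENSMUSG00000024679) and Ms4a7 (ENSMUSG00000024672). All 8 were found by symbol among the 35697 gene identifiers of the libraries made in 2018 and among the 55637 identifiers of those made in 2022. These 8 genes were chosen by symbol when the TBI and sham values of the same mice were already known. The values of that comparison are therefore given as a description, without a test.

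MS4A proteins pass through the membrane several times, and many of them sit beside signalling receptors at the surface of immune cells. Ms4a1 encodes CD20, the surface antigen of B cells, and Ms4a4b is best known from T cells and natural killer cells. Ms4a4a, Ms4a6d and Ms4a7 are known from macrophages and microglia, and the human MS4A locus is a known risk locus for Alzheimer's disease that is tied to the amount of soluble TREM2, a receptor of microglia.

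The study used adult male C57BL/6J mice and controlled cortical impact (CCI), in which a piston strikes the exposed cortex, as a model of traumatic brain injury (TBI). In the 2018 batch 3 sham mice, which had the surgery without the blow, were compared with 3 TBI mice at 7 days. In the 2022 batch 3 TBI mice were compared with 3 TBI mice given zileuton, an inhibitor of 5-lipoxygenase, at 10 mg per kg per day into the peritoneum, dissolved in corn oil. The 2022 controls carry no treatment in their labels, and the paper names them the vehicle group. Source labels of the 3 zileuton libraries give 7 to 9 days after injury, whereas their library names give 7. RNA came from the whole tissue around the contusion, so fewer cells of a type and less RNA per cell cannot be told apart. The mice of 2018 are called 1 to 3 and those of 2022 A to C within each group, and no comparison was made across the batches.

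Total counts per library were 42929862 to 48684674 in 2018 and 27845562 to 35453257 in 2022. Counts of Gfap, a gene of reactive astrocytes, were 6723 to 10221 in sham mice and 110256 to 126444 in TBI mice of 2018. Genes of brain tissue were abundant in every library, with summed levels of 10900 to 15900 CPM (counts scaled to library size, per 1000000) over 10 genes such as Snap25 and Mbp. The Y-linked gene Ddx3y was present in all libraries, at 2518 to 3008 counts in 2018 and 938 to 1240 in 2022. Xist, normally transcribed in females, had 856 to 1155 counts in every library of 2018, sham and TBI alike, and at most 6.01 in 2022. The embryonic globin gene Hbb-y had 70 to 183 counts in sham mice against 0 to 6 in TBI mice, and the part of either feature in the comparisons was not tested.

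The 8 genes lie close together on mouse chromosome 19. Between the first and the last Ms4a gene, the annotation listed 22 protein-coding genes, of which 21 were Ms4a genes, and the 8 genes took places 9 to 20. Ms4a7, Ms4a4a, Ms4a4c, Ms4a4b, Ms4a6c, Gm8369, Ms4a6b, Ms4a4d and Ms4a6d are 9 direct neighbours in that order. Ms4a1 stands apart from them, with Ms4a5 and Ms4a14 between it and Ms4a7.

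**Figure D1:**
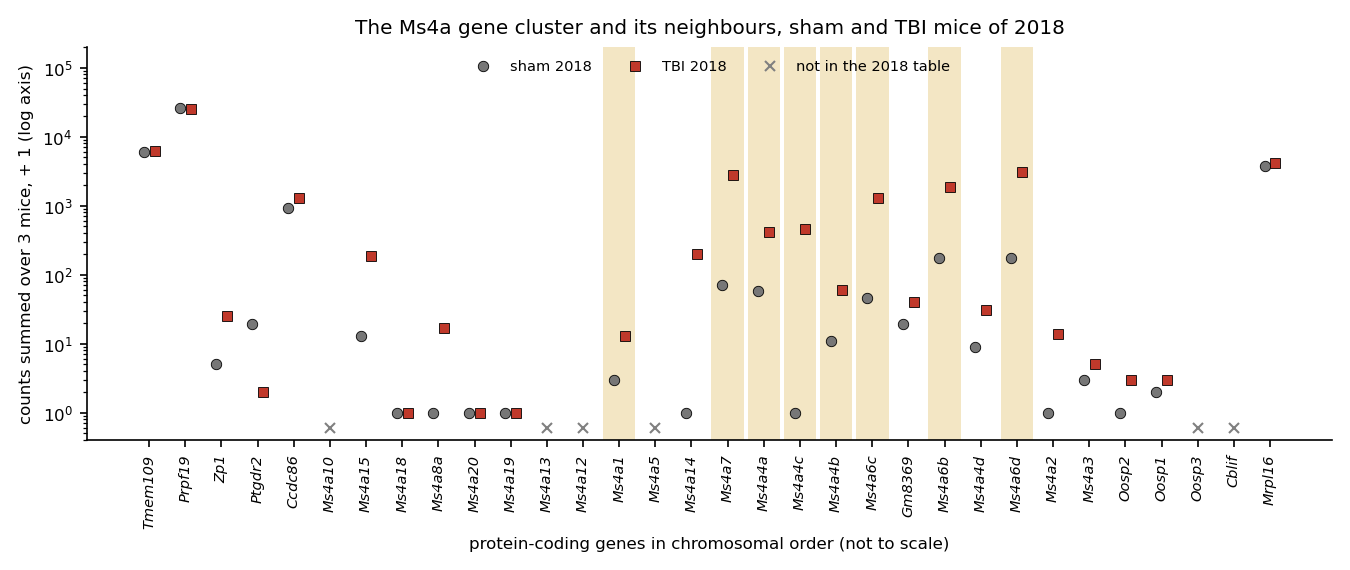
Counts summed over 3 mice plus 1 (vertical log axis) for each protein-coding gene in chromosomal order (horizontal axis, not to scale), in sham mice (grey circles) and TBI mice (red squares) of 2018, with the 8 genes shaded and crosses for genes not in the 2018 table. Ms4a7, Ms4a6b and Ms4a6d reached the highest TBI sums of the cluster (2808, 1874 and 3118 counts), whereas Tmem109, Prpf19 and Mrpl16 outside it had similar sums in both groups.

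Within the cluster the proteins fell into close and distant relatives. By global alignment, Ms4a4b and Ms4a4c, of 226 residues each, were identical at 84.5% of aligned residues. Ms4a6b (244 residues) shared 72.9% with Ms4a6c (217 residues) and 71.3% with Ms4a6d (247 residues), and Ms4a6c shared 65% with Ms4a6d. Ms4a4a (236 residues) shared 45.9% with Ms4a4b and 47.7% with Ms4a4c. Ms4a1 (291 residues) was the most distant, with 24.4% to 31.7% against the other 7, and Ms4a7 (267 residues) shared 25.3% to 34.7% with the rest. The close pairs also share stretches of transcript, the longest being 127 bases between Ms4a4b and Ms4a4c, 96 between Ms4a6b and Ms4a6c and 81 between Ms4a6b and Ms4a6d. A read that falls inside such a stretch could be given to either gene, so the split of counts within these pairs is uncertain. Of the windows of 100 bases in their transcripts, however, 1.66% in Ms4a4c, 0.473% in Ms4a4b and 0% in the other 6 genes occurred in another Ms4a gene. Counts that are not whole, as programs give when they share reads between genes, occurred in 2022 in 6 of 6 libraries for Ms4a6c, 4 of 6 for Ms4a6b, 1 of 6 for Ms4a1 and in none for the other 5 genes. Genes on the opposite strand overlap Ms4a1 (4930526L06Rik), Ms4a4c (Gm5692), Ms4a6c (BE692007) and Ms4a6b (Gm19261), and the sources used here do not say whether counting used the strand.

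The likeness of the close pairs reached into their promoters. RefSeq windows of 250 bases before to 50 bases after a start (build GRCm38.p6) were found for 6 of the 8 genes, with none for Ms4a1 and Ms4a6d and with 7 windows in all. By gapped alignment, the windows of Ms4a6b and Ms4a6c were identical at 199 of 223 aligned bases (89.2%), and those of Ms4a4b and Ms4a4c at 235 of 283 (83%). Every other pair of windows lay between 60.7% and 75.4%, which is the level that this alignment gave to distant members. The 4 windows of these pairs are printed because each pair joins near copies whose values in the brain can be set side by side. They all lie on the plus strand, and capitals mark matches to the motifs searched, on either strand. The window of Ms4a6b lies at chr19:11518309-11518608, that of Ms4a6c at chr19:11469118-11469417, that of Ms4a4b at chr19:11443308-11443607 and that of Ms4a4c at chr19:11407411-11407710.
Ms4a6b: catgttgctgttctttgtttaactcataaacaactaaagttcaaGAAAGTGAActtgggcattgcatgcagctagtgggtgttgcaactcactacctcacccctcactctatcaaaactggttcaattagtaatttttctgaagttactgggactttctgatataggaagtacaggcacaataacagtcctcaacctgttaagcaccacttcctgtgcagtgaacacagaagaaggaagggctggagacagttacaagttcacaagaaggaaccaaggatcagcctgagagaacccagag
Ms4a6c: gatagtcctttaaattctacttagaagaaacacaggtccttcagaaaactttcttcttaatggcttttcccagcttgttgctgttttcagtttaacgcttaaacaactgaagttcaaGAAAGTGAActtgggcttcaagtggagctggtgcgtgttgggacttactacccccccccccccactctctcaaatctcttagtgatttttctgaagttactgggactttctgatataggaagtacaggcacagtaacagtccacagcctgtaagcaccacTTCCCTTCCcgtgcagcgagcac
Ms4a4b: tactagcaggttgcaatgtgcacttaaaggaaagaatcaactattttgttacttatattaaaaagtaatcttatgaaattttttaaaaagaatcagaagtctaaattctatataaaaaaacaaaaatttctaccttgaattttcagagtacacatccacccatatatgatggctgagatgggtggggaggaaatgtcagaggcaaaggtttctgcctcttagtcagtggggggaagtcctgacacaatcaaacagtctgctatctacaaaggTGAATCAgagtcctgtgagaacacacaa
Ms4a4c: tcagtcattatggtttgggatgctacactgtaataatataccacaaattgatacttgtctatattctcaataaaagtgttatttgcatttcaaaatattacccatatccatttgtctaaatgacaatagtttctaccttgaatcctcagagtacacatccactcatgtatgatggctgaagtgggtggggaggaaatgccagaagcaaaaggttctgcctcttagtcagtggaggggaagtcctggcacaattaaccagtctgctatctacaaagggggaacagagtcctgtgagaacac
Both Ms4a6 windows carried the same match to the interferon response element (GAAANNGAA), and Ms4a6c carried in addition a match to a composite of ETS and IRF sites (GGAANNGAA). Ms4a4b held a match to the AP-1 site (TGANTCA), and none of the motifs searched was found in Ms4a4c. Over all 7 windows, the interferon element occurred in 4 (both windows of Ms4a7, Ms4a6b and Ms4a6c), against 8.56% of 32851 windows of all genes. As Ms4a7 enters with both windows, and Ms4a6b and Ms4a6c are near copies, these matches are not independent. The AP-1 site occurred in 2, against 7.81% of all windows, the composite in 1, against 8.24%, and the PU.1 site GAGGAAGT in 0, against 3.2%. The interferon and composite patterns differ at their second base, so no stretch matches both in full, and the matches in Ms4a6c lay apart from each other.

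At 7 days after injury, transcripts of 7 of the 8 genes were higher in every TBI mouse than in every sham mouse, and the family as a whole went from traces to a clear signal. The summed level of the 8 genes was 4.57, 3.76 and 3.14 CPM in sham mice 1 to 3 and 61.6, 49 and 107 CPM in TBI mice 1 to 3. Ms4a6d and Ms4a7 had the most counts in TBI mice, and Ms4a1 the fewest. Over all 19536 genes tested, 28% passed an adjusted p-value of 0.05 in edgeR (16.8% higher and 11.2% lower in TBI), and in 24.6% every TBI mouse was above every sham mouse. Counts sufficed to test 6 of the 8 genes, and all 6 were on the higher side of that threshold. Nothing is read from this, as the genes were selected on the same contrast and Ms4a1 and Ms4a4b were dropped for low counts.

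Among the genes known from macrophages, Ms4a7 changed from 14, 25 and 31 counts in sham mice to 998, 557 and 1253 in TBI mice. In CPM this was 0.501 ± 0.174 against 20.3 ± 8.83 (SD, n = 3 in both groups), which is 40.1-fold or 5.32 on the log2 scale (SE 0.406). The highest sham value lay far below the lowest TBI value. Ms4a6d, whose product binds the macrophage receptor VSIG4, had 66, 58 and 47 counts in the sham group and 893, 763 and 1462 in the TBI group. Its level was 1.24 ± 0.238 and 22.6 ± 9.91 CPM (log2 fold change 4.19, SE 0.327). Ms4a4a, a surface protein of alternatively activated macrophages, had 8, 26 and 22 counts in the sham group and 116, 110 and 187 in the TBI group. With 0.401 ± 0.2 against 2.99 ± 1.18 CPM, its log2 fold change of 2.88 (SE 0.447) was the lowest of the 6 genes tested.

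The near copies Ms4a6b and Ms4a6c were both higher after injury, from different starting levels. Ms4a6b had 101, 39 and 35 counts in the sham group and 565, 455 and 854 in the TBI group, and sham mouse 1 alone held more than the other two sham mice together. Its level went from 1.27 ± 0.84 to 13.5 ± 5.54 CPM, a log2 fold change of 3.41 (SE 0.452) that became 4.08 without sham mouse 1. Ms4a6c had 11, 22 and 12 counts in the sham group and 329, 347 and 609 in the TBI group. Its change from 0.324 ± 0.131 to 9.32 ± 4.18 CPM gave a log2 fold change of 4.83 (SE 0.408). When the reads of Ms4a6b, Ms4a6c and Ms4a6d were summed into 1 feature, the log2 fold change was 4.004 (SE 0.348).

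The near copies Ms4a4b and Ms4a4c, in contrast, stood far apart in injured tissue. Ms4a4c was at 0 in all 3 sham mice and at 120, 126 and 205 counts in TBI mice (3.26 ± 1.3 CPM). This is at least 50.3-fold higher if 3 counts per library are taken as the limit that a count of 0 allows, and at least 25.1-fold higher with 6 counts. Both limits are given because among counts from 1 to 20 in the 2018 libraries 62.3% to 64.4% were even, so that the reads of a pair may have been counted separately. Ms4a4b had 6, 4 and 0 counts in the sham group and 8, 23 and 28 in the TBI group, 0.0732 ± 0.0676 and 0.428 ± 0.247 CPM. Its groups did not overlap, but TBI mouse 1 exceeded sham mouse 1 by 2 counts only. Summed with Ms4a4a to 1 feature, the 3 Ms4a4 genes had a log2 fold change of 3.81 (SE 0.373).

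Ms4a1 was not part of the pattern. It had 0, 0 and 2 counts in the sham group and 0, 6 and 6 in the TBI group, so the groups overlapped and no difference was detectable at this depth. Among the TBI mice, mouse 3 had the highest CPM for all 8 genes, and the lowest fell to mouse 1 for 4 genes and to mouse 2 for the other 4. Mouse 3 also had the most Cd68, a lysosomal gene of activated microglia and macrophages, at 5634 counts against 3814 and 4076, and the lowest summed level of brain tissue genes of the 3 (12700 CPM against 15600 and 15900).

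**Figure D2:**
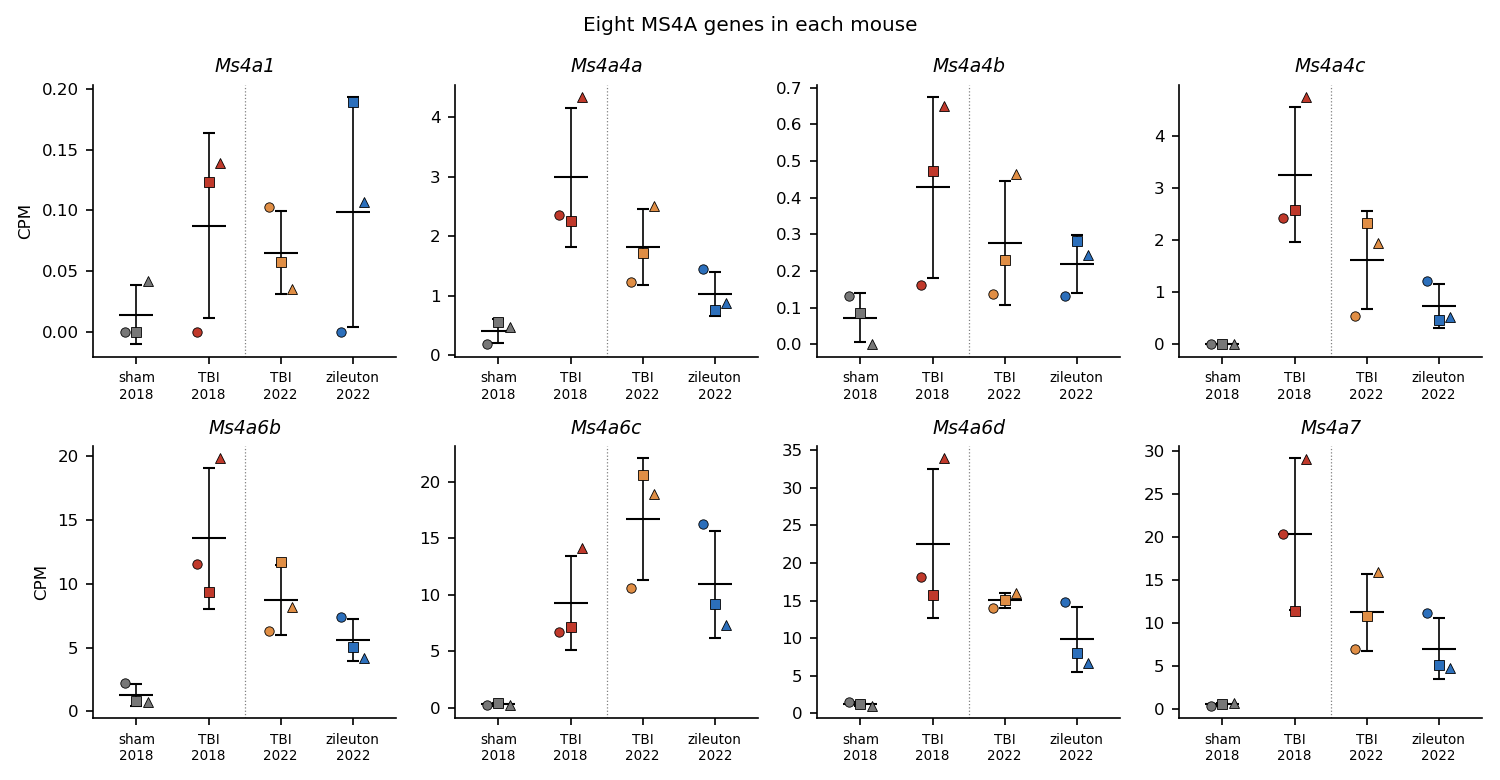
Level of each of the 8 genes in CPM (vertical axis, a separate linear scale per panel) in each mouse of the 4 groups (horizontal axis), with circles for mice 1 or A, squares for 2 or B and triangles for 3 or C; bars give the mean and SD of 3 mice, and the dotted line parts the batches. In 2018 the TBI and sham mice do not overlap for any gene but Ms4a1, and in 2022 the TBI and zileuton mice overlap for every gene.

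Comparing genes with each other needs values per length, here FPKM, scaled to gene length and library size, for the first batch and TPM for the second. In sham mice Ms4a6d was first at 0.561 to 0.824 FPKM, followed by Ms4a4a, Ms4a6b, Ms4a6c and Ms4a7, each of which overlapped with its neighbour in the order. Ms4a7 at 0.0681 to 0.144 FPKM was separate from Ms4a4b, which had at most 0.0148. After TBI Ms4a6d led with 10.6, 9.37 and 19.6 FPKM in mice 1 to 3, and its lowest value lay above the highest of Ms4a6c, the next in order (3.3 to 6.92 FPKM). Ms4a6c, Ms4a7 (2.67 to 6.55 FPKM), Ms4a4a (2.8 to 5.21 FPKM), Ms4a6b (2.16 to 4.44 FPKM) and Ms4a4c (1.41 to 2.73 FPKM) overlapped from each to the next. Ms4a4b and Ms4a1, at most 0.0743 and 0.0226 FPKM, closed the order well below them. The order depends on the gene lengths behind the deposited values, which were not examined. In CPM, which is not scaled to length, Ms4a6d and Ms4a7 were close in TBI mice (22.6 ± 9.91 and 20.3 ± 8.83 CPM), against means of 13.2 and 4.61 FPKM. In TBI mice of 2022 the means of these 2 genes were 15 and 11.2 CPM, and 21.4 and 19.4 TPM.

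In the make-up of the family signal by FPKM, which depends on the same lengths, 3 genes had shares that did not overlap between sham and TBI mice. Ms4a7 made up 3.96% to 9.35% of the summed FPKM in sham mice and 12% to 18.1% in TBI mice. Ms4a6c made up 6.75% to 11.9% in sham and 13% to 16.2% in TBI mice. The share of Ms4a4c was 0% in every sham mouse and 5.56% to 6.89% in TBI mice. Ms4a6d held 36.4% to 48% in sham and 41.8% to 43% in TBI mice, so the sham range enclosed the TBI range. In 2022 the order of the means was led by Ms4a6c in TBI mice (14.4 to 31.6 TPM) and by Ms4a6d in zileuton mice (9.91 to 22.7 TPM), and in both groups Ms4a6c, Ms4a6d and Ms4a7 overlapped. As in the TBI mice of 2018, Ms4a1 was last, at no more than 0.06 TPM in TBI mice and 0.12 TPM in zileuton mice.

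**Figure D3:**
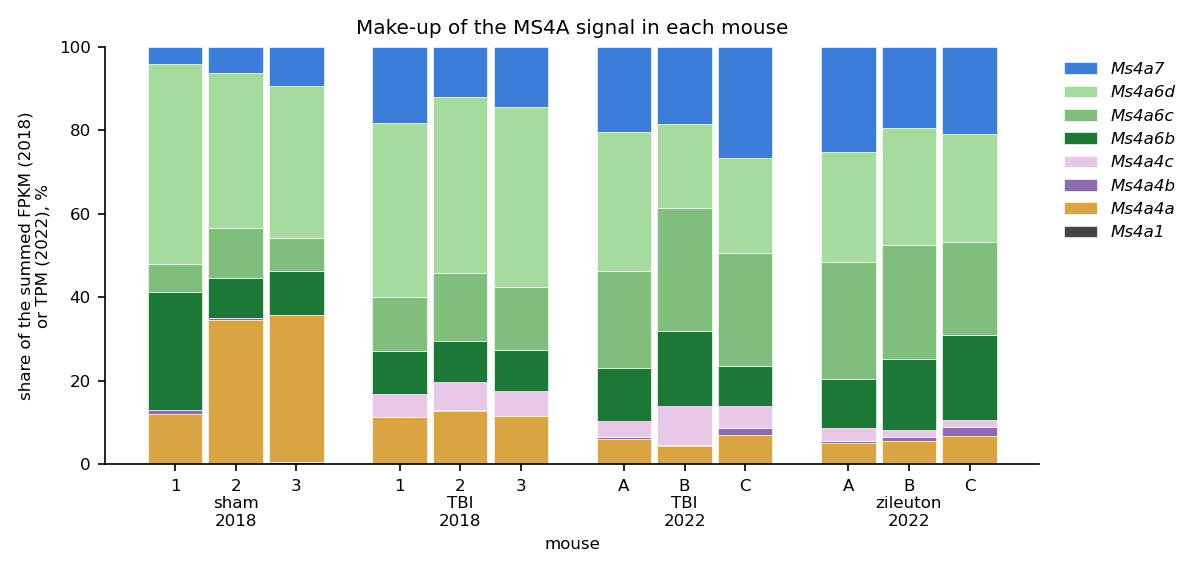
Share of each of the 8 genes in their summed FPKM (2018) or TPM (2022), in percent (vertical axis), in each mouse (horizontal axis). Ms4a7 takes 3.96% to 9.35% in sham mice and 12% to 18.1% in TBI mice of 2018, Ms4a4c is absent from the sham bars, and Ms4a1 and Ms4a4b are barely visible in any mouse.

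The group was named for myeloid cells. Ms4a1 and Ms4a4b, both known from lymphocytes, were near 0, and levels in whole tissue do not show which cells held the transcripts of the other 6. Of 12 B cell genes, 9 were tested and 2 rose after TBI, Cd79b (0.21 to 1.5 CPM) and Cd22 (1, 0 and 2 counts in sham mice to 315, 300 and 367). Cd22 is also known from microglia. Summed B cell levels were 29.7 to 49.8 CPM in sham and 47 to 57.5 CPM in TBI mice, carried by Ighm (39.1 ± 11.6 and 41.4 ± 5.25 CPM, SD, n = 3). Of 13 genes of T and natural killer cells, 6 were tested, with Cd3g higher and Trbc2 lower (edgeR adjusted p = 0.0307) in TBI. The count filter kept Cd3g through the TBI mice, so nothing is read from its pass of the adjusted threshold. The count of 2 genes past that threshold became 4 without sham mouse 2 or TBI mouse 1, and 1 without any single one of the other 4 mice. Cd3e, Ncr1 and Klrb1c stayed at 10 counts or fewer, and summed levels overlapped (20.1 to 38.9 CPM in sham and 13.5 to 39 CPM in TBI mice). Those sums were carried by Cd4, at 12.5 ± 7.57 and 12.3 ± 13.1 CPM, and Trbc2, at 14.7 ± 3.81 and 7.87 ± 2.52 CPM. The part of these cells in Ms4a4b and Ms4a1 was not tested.

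Markers of myeloid cells were mostly higher after TBI. All 10 genes of activated microglia and macrophages passed on the higher side (median log2 fold change 4.21, against 0.017 over all genes tested), and so did all 10 of homeostatic microglia, such as Cx3cr1 and Fcrls (median 1.30). Of 10 genes of border-associated macrophages, the resident macrophages of the meninges and perivascular spaces, 7 rose (median 2.004), led in level by Stab1 (13.2 ± 1.35 to 135 ± 14.3 CPM). Cd163 and Lyve1 did not pass, at 3.7 ± 0.692 against 3.94 ± 0.353 CPM and 1.65 ± 0.566 against 1.63 ± 0.586 CPM. Of 7 monocyte genes 6 rose (median 5.53), among them Ccr2 (0.287 ± 0.147 to 5.19 ± 2.05 CPM). Of 9 neutrophil genes, 5 were tested and 4 rose, S100a9 from 0.3 ± 0.19 to 18 ± 11.7 CPM. Of 7 mast cell genes 2 were tested, with Tpsb2 higher and Kit lower, and of the 10 brain tissue genes 4 rose and 3 fell (median -0.001). Several of these cell types moved at once with the MS4A genes, and their parts in the result were not tested.

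Relative to Cd68 and to the summed CPM of myeloid marker lists, the family sum was higher after TBI, except against the neutrophil genes. It equalled 44.9% to 50.9% of Cd68 CPM in sham mice and 58.5% to 81.7% in TBI mice. Against the summed homeostatic microglia genes it was 1.22% to 1.58% and 5.7% to 9.73%, and against the border-associated macrophage genes 10.6% to 15.3% and 27.4% to 43%. Against the activated microglia and macrophage genes it was 0.195% to 0.263% and 0.497% to 0.899%, and against the monocyte genes 12.2% to 15.7% and 81.5% to 148%. None of these 5 ratios overlapped between the groups. The monocyte sum, however, was carried by Vcan (25.7 ± 1.83 CPM in sham and 41 ± 3.58 CPM in TBI mice). Apoe carried the activated sum (1580 ± 125 and 8470 ± 674 CPM), so these 2 ratios mostly set the family against 1 gene each. Stab1 was likewise the largest part of the border-associated macrophage sum in TBI mice, at 135 ± 14.3 CPM where the sums were 179 to 249 CPM. By median log2 fold change the monocyte genes rose more (5.53) and the activated genes less (4.21) than the 6 MS4A genes tested (4.51). Within the activated genes, Apoe rose by 2.43 and Spp1 by 6.84. Against the neutrophil genes the ratio was 572%, 458% and 217% in sham and 378%, 180% and 171% in TBI mice, lower on average after TBI and overlapping. The ratios describe the chosen genes without a test.

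Genes whose products are known to work with MS4A proteins or with TREM2 were examined as a list of 10. The list was chosen with earlier results of these data known, so its p-values after TBI are descriptions. Of the 9 tested, 7 rose after TBI and none fell (median log2 fold change 1.90). Trem2 itself had 908, 786 and 864 counts in the sham group and 5923, 6050 and 7842 in the TBI group (log2 fold change 2.95, SE 0.166, edgeR adjusted p = 1.15e-05), and its adaptor Tyrobp went from 12.7 ± 2.38 to 121 ± 40 CPM (adjusted p = 3.16e-05). Clec7a, the receptor dectin-1 with which MS4A4A associates, went from 0.13 ± 0.0871 to 34.2 ± 6.71 CPM. The count filter kept Clec7a through the TBI mice, so nothing is read from its pass of the adjusted threshold. The other 4 that rose were Syk, Plcg2, Adam17 and Fcer1g. Adam10, which sheds TREM2, had 97.9 ± 6 and 104 ± 2.55 CPM and did not pass (adjusted p = 0.377), nor did Tnfrsf18, which encodes GITR, at 1.45 ± 0.109 and 1.4 ± 0.207 CPM (adjusted p = 0.899). Vsig4, the partner of Ms4a6d, was too low to be tested, with at most 10 counts in any library.

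Other genes of the family were mostly silent. Ms4a14, a neighbour of Ms4a7, was at 0 in the sham group and at 68, 59 and 72 counts in the TBI group (1.42 ± 0.233 CPM), at least 21.9-fold higher under the limit of 3 counts per library, and at least 11-fold under that of 6. It passed the adjusted threshold in edgeR, but the count filter kept it through the TBI mice alone, so nothing is read from this. Ms4a4d had 2, 4 and 2 counts in the sham group and 2, 12 and 16 in the TBI group, and Ms4a8a had 0 in sham mice and 0, 4 and 12 in TBI mice. Ms4a15 had 4, 0 and 8 counts in the sham group and 4, 2 and 177 in the TBI group, so that its signal came from TBI mouse 3 alone. The related genes Tmem176a and Tmem176b, which encode channel proteins of dendritic cells and macrophages, rose by 1.72 and 1.68 on the log2 scale (edgeR adjusted p = 6.2e-05 and 3.2e-05).

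In the 2022 batch, which asks what inhibition of 5-lipoxygenase does to the injured tissue, all 6 MS4A genes with enough counts were lower on average in zileuton mice, but none passed the adjusted threshold and the groups overlapped for each of the 8 genes. Over all genes, 0% of 17363 tested passed in edgeR (smallest adjusted p = 0.185), 6.83% had an unadjusted p-value under 0.05, and 3.9% had one with the lower mean in zileuton mice. In 7.05% of genes every zileuton mouse was below every TBI mouse. Of the 6 MS4A genes, 1 had an unadjusted p-value under 0.05. This count depended on the fit, with 2 of 6 when 10 counts were asked of every library, 3 of 8 in DESeq2 and 6 of 8 in edgeR without a filter beyond 1 count. Over all genes the same fits gave 1175 of 16115, 1175 in DESeq2 and 1766 of 29601. DESeq2 was run on all 55637 identifiers, but only the 29601 with at least 1 count could get a p-value.

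Ms4a6b was that gene, with estimated counts of 184.35, 409.25 and 229 in TBI mice A to C and 224.79, 161.07 and 121 in zileuton mice A to C. Its log2 fold change was -0.65 (SE 0.275, 95% interval -1.28 to -0.02, edgeR adjusted p = 0.713). Ms4a6c had 309.88, 720.22 and 530.42 against 497.02, 292.18 and 209.85 (log2 fold change -0.61, 95% interval -1.37 to 0.149, edgeR adjusted p = 0.717). Ms4a6d had 407, 527 and 448 against 451, 257 and 193 (log2 fold change -0.60, 95% interval -1.21 to 0.008, edgeR adjusted p = 0.713). In each of these genes zileuton mouse A lay inside the range of the TBI mice, and mice B and C lay below it.

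Ms4a7 had 203, 379 and 445 counts in TBI mice and 336, 163 and 136 in zileuton mice, with a log2 fold change of -0.69 (95% interval -1.57 to 0.195, edgeR adjusted p = 0.721). Ms4a4a had 36, 60 and 70 against 44, 24 and 25 (log2 fold change -0.82, 95% interval -1.66 to 0.02, edgeR adjusted p = 0.713). Ms4a4c had 16, 82 and 55 against 37, 15 and 15, the largest difference and the widest interval (log2 fold change -1.14, 95% interval -2.46 to 0.183, edgeR adjusted p = 0.713). For these genes TBI mouse A was the lowest of its group and zileuton mouse A the highest of its own. Ms4a4b (4, 8 and 13 against 4, 9 and 7) and Ms4a1 (3, 2 and 1 against 0, 6 and 3.07) were too low to test. Over the 6 genes the intervals run from -2.46 to 0.195, and 5 of the 6 include 0.

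**Figure D4:**
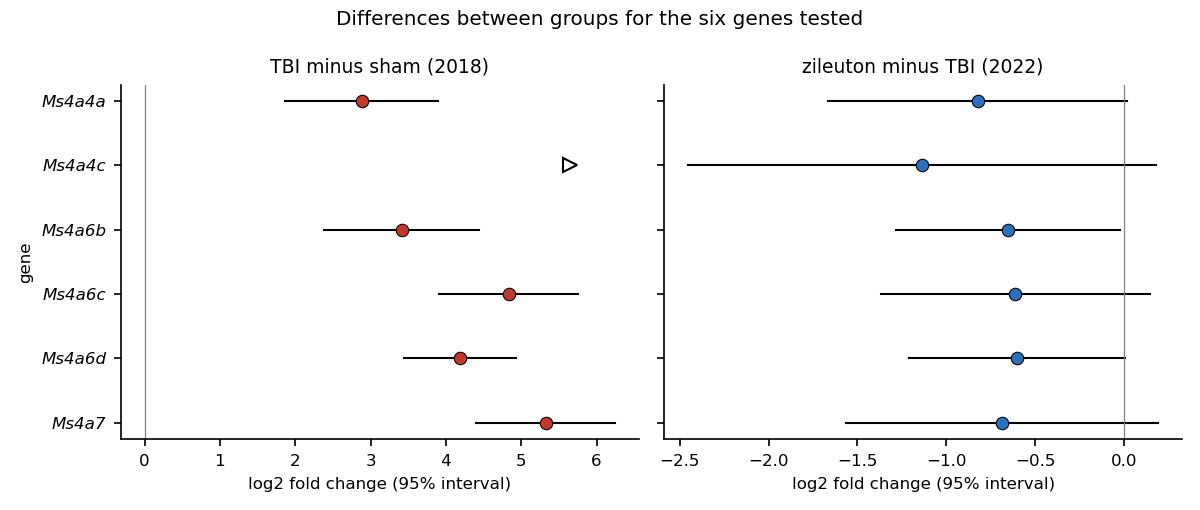
Log2 fold change with its 95% interval (horizontal axes, of different scale) for the 6 genes tested (vertical axis), TBI against sham mice of 2018 on the left and zileuton against TBI mice of 2022 on the right. The open triangle is the lower bound of Ms4a4c, 50.3-fold, on the log2 scale; in 2018 the points lie between 2.88 and 5.32, and in 2022 between -1.14 and -0.60 with 5 of 6 intervals across 0.

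That count also changed with single mice. Without zileuton mouse A all 6 genes had an unadjusted p-value under 0.05, with log2 fold changes of -1.70 to -0.91 and adjusted p-values of 0.299 to 0.42. Without TBI mouse A it was 5 genes, and without any 1 of the other 4 mice it was 0. Over all genes, 1909 of 17632 were under that p-value without zileuton mouse A and 1084 of 17720 without TBI mouse A. The number was 1186 of 17363 with all mice, and 689 to 1433 without any 1 of the other 4. Each of these fits kept all 6 differences below 0, and none brought a gene past the adjusted threshold.

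The family sum was 39.9, 62.5 and 63.9 CPM in TBI mice A to C and 52.4, 29.1 and 24.7 CPM in zileuton mice A to C, so the groups overlapped. The same mice were high or low for other myeloid genes, since Cd68 was lowest in TBI mouse A (93.5 CPM) and highest among zileuton mice in mouse A (152 CPM). TBI mouse A also had the lowest summed level of brain tissue genes, 10900 CPM against 14100 to 15100 CPM in the other 5 libraries, and the part of this in the comparison was not tested. Ratios to such genes were looked at after the values were seen. The family sum was 42.7%, 36.8% and 34.7% of Cd68 CPM in TBI mice and 34.5%, 23.3% and 27% in zileuton mice, which part by a narrow margin. It was 4.36%, 5.08% and 4.84% of the summed homeostatic microglia genes against 4.13%, 2.83% and 2.66%. Relative to the border-associated macrophage genes it was 21.7%, 24.1% and 21.2% against 17.1%, 14.7% and 14.5%, with no overlap between the groups. Stab1 was the largest part of that border-associated sum, at 167 ± 40.6 CPM in TBI and 164 ± 53.9 CPM in zileuton mice. Against the activated microglia and macrophage genes the ratios overlapped (0.586% to 0.803% in TBI and 0.43% to 0.611% in zileuton mice). Against the monocyte genes they did not overlap (121% to 133% and 70.8% to 101%), and against the neutrophil genes they did (1050% to 2440% and 809% to 2650%). Vcan again carried the monocyte sum, at 28.3 ± 6.25 CPM in TBI and 32.5 ± 4.57 CPM in zileuton mice. The monocyte ratio therefore mostly sets the family against 1 gene. Such ratios describe the chosen genes in these mice only and were not tested.

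**Figure D5:**
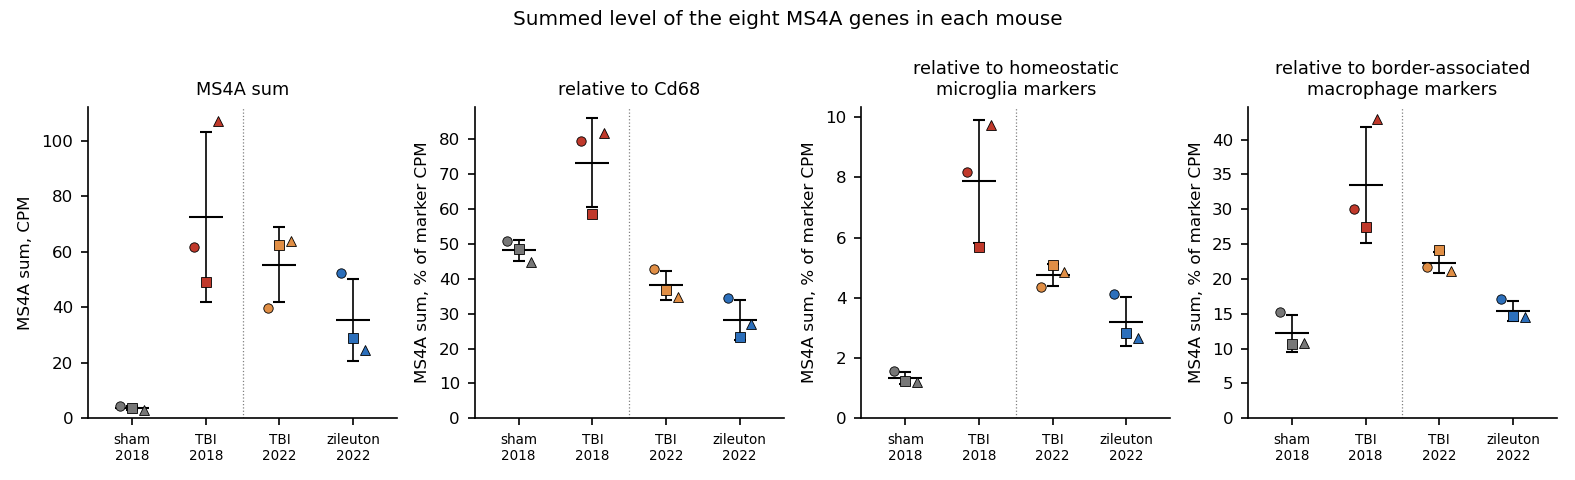
Summed CPM of the 8 genes (first panel) and the same sum as a percentage of the CPM of Cd68, of the summed homeostatic microglia genes and of the summed border-associated macrophage genes (vertical axes), in each mouse of the 4 groups (horizontal axes); symbols and bars are as in the plot of single genes. The 2022 groups overlap in the sum, with zileuton mouse A at 52.4 CPM, and do not overlap in the 3 percentages drawn. Of the ratios not drawn, that to the monocyte genes does not overlap in 2022. Those to the activated microglia and macrophage genes and to the neutrophil genes do.

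Of the marker lists, none held a gene past the adjusted threshold in the zileuton comparison. Median log2 fold changes were -0.12 for the partners, -0.116 for homeostatic microglia, -0.16 for activated microglia and macrophages, -0.075 for border-associated macrophages, -0.315 for monocytes and -0.425 for the 3 neutrophil genes tested, against 0.003 over all genes. For B cells, T and natural killer cells, mast cells and brain tissue they were 0.03, 0.137, 0.216 and 0.039. Single myeloid genes differed by more than these medians, and those given here were chosen after their values were seen. Chil3, a chitinase-like gene of monocytes and macrophages, had 2.06 ± 0.323 CPM in TBI and 0.679 ± 0.496 CPM in zileuton mice (log2 fold change -1.59). The monocyte gene Ly6c2 had 2.77 ± 1.17 and 1.3 ± 0.488 CPM (log2 fold change -1.11), and Spp1, which encodes osteopontin, had 1110 ± 406 and 483 ± 217 CPM (log2 fold change -1.20). For these 3 every zileuton mouse was below every TBI mouse, as for 7.05% of all genes, and each had an adjusted p of 0.713 in edgeR. Plac8 (log2 fold change -1.20) and Siglec1 (-0.81) were lower on average with overlapping groups, at the same adjusted p. Trem2 had a log2 fold change of -0.21 (adjusted p = 0.861), Tyrobp of -0.34 (adjusted p = 0.763) and Ms4a14 of -0.41 (edgeR adjusted p = 0.848), with 10, 26 and 35 counts of Ms4a14 in TBI mice and 22, 15 and 16 in zileuton mice. Tmem176a and Tmem176b differed by -0.09 and -0.07 (adjusted p = 0.937 and 0.946).

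The 5 genes outside the family that followed its summed level most closely over the 6 libraries of 2018 were sought among 15586 genes with a mean of at least 1 CPM. The measure was the SD of the log2 ratio of CPM to the family sum, with 0.5 CPM added to both. They were Tmem106a (0.185), Clec4d (0.23), Msr1 (0.233), C3ar1 (0.237) and Fcgr2b (0.259), where Clec4d encodes a C-type lectin, Msr1 a scavenger receptor, C3ar1 the receptor of complement C3a and Fcgr2b an inhibitory Fc receptor. In the 6 libraries of 2022, which did not enter the choice, their SDs were 0.199, 0.246, 0.312, 0.272 and 0.336, at places 19, 68, 234, 122 and 337 of 15054 genes whose median was 0.592. Tmem106a had 0.71, 0.519 and 0.379 CPM in sham mice and 12.3, 13.2 and 20.3 CPM in TBI mice of 2018. It had 14.1, 20.5 and 18.9 CPM in TBI mice and 19.7, 12.5 and 9.83 CPM in zileuton mice of 2022, so that zileuton mouse A was again the highest of its group and TBI mouse A the lowest of its own. These likenesses are descriptions over 6 libraries that share depth and tissue makeup.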

How the data were processed

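RNA from brain tissue around the contusion was sequenced from 12 mice in 2 batches, with 4 groups of 3. Per gene, the authors deposited whole-number raw counts and FPKM of the 2018 libraries. Of the 2022 libraries the authors deposited TPM and estimated counts, 13.7% of which were not whole. The submitters' processing notes name HISAT2, featureCounts of Subread, DESeq2 and GRCm39 without their roles or versions. Samples were grouped by library name, and 2022 columns were mapped to a group without a replicate number.

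Estimated counts were rounded, since the plan had assumed counts for both batches, and the printed estimated counts of 2022 are unrounded. Each batch was fitted whole in R 4.3.3 with edgeR 4.0.16 (TMM, filterByExpr, quasi-likelihood F-test), with Benjamini-Hochberg adjustment across the genes tested. CPM use TMM-scaled library sizes. The SE is the log2 fold change divided by the square root of F, and intervals use the degrees of freedom of the fit. The mice are separate animals as far as the labels tell. Intervals and count limits cover the error stated beside them only. The script was tested on simulated data. Symbols matched 34808 of 35697 and 52081 of 55637 identifiers. Gene order and promoter windows came from RefSeq, and strands, overlaps and protein comparisons from GENCODE M21. Both are on GRCm38, a build other than the authors', and no gene coordinates are given. Sequences were aligned with Biopython 1.88, and figures drawn with matplotlib 3.10.9 in Python 3.11.15.

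The 8 genes and all lists were chosen with earlier results of these data known. Named by rule were the 8 genes, other Ms4a genes and Tmem176a and Tmem176b with at least 10 counts in a library, genes next to a member, the 5 genes with the pattern most like the family (prior 0.5 CPM), up to 3 genes of highest mean CPM per list, and those needed for small counts; further list genes such as Clec7a and Cd163 were named after their values were seen. Alternatives were DESeq2 1.42.0 as the test or for size factors alone, unscaled library totals, a filter of 1 count in total or of 10 counts per library, limma 3.58.1 on log2(FPKM or TPM + 1) and + 0.1 for genes with a mean of at least 0.5, limma without a filter, a trend with gene length removed, a replicate block, summed paralogues, a prior of 0.1 CPM and leaving out each mouse.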

Additional observations from a re-analysis of the deposited data

How the results depend on the processing

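Against TBI, zileuton left 0 MS4A genes past the adjusted threshold under each alternative, and the 6 genes tested kept their direction under each that tested them, while the number at an unadjusted p-value under 0.05 ran from 0 to 6. After TBI the number past the threshold was 6, and 4 to 7 under the alternatives (6 to 7 with a mouse left out), where 4 is all that remained with at least 10 counts in every library. Since the genes were chosen on that contrast, these numbers say nothing of its stability. Of the lists after TBI, the T and natural killer cell count moved from 2 to 4 without a filter (1 to 4 with a mouse left out), the mast cell count from 2 to 5 without a filter (2 to 4, the latter without TBI mouse 1), and that of other Ms4a genes from 1 to 2 without a filter (1 to 2, the latter without TBI mouse 1). The log2 fold changes of the 6 genes moved most in limma on log2(FPKM + 1), where low sham values are pulled up, to 1.50 for Ms4a4c and 3.00 for Ms4a6d, and that of Ms4a6b to 4.08 without sham mouse 1. With a prior of 0.1 CPM, 2 of the 5 most similar genes were the same.

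Over all genes in the zileuton comparison, 0 passed in edgeR (1186 at an unadjusted p-value under 0.05), 26 in DESeq2, 4 in edgeR without a filter, 4 and 5 in limma with 1 and 0.1 added, and 0 in the remaining fits. The numbers of the mice do not pair them: deviations of equal numbers correlated at -0.0944 to -0.0228 in 2018 and at -0.282 to 0.0628 in 2022. With the replicate block, 4337 genes passed after TBI in place of 5479, with all 6 MS4A genes, and 0 with zileuton (729 at an unadjusted p-value under 0.05). Ms4a1 and Ms4a4b, at most 28 counts in any library, are limited by depth.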

Other observations

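Further genes of the Ms4a cluster gave small signals that belong in no comparison above. Ms4a2, the beta chain of the mast cell IgE receptor, had 0 counts in sham mice and 3, 8 and 2 in TBI mice, and Ms4a3, a gene of myeloid progenitors, had 2 counts over the 3 sham mice and 4 over the 3 TBI mice. Gm8369, which lies between Ms4a6c and Ms4a6b, had 18 counts over the sham mice and 39 over the TBI mice, so that it stayed low between neighbours with 1285 and 1874. Cd4, which encodes a co-receptor of T cells and is also expressed by microglia and monocytes, varied widely between mice of 1 group, with 399, 348 and 1010 counts in sham mice and 166, 1330 and 265 in TBI mice.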
